A study of Mus musculus with 20 samples.

Results

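The Ly49 receptors are lectin-like proteins of the lymphocyte surface, encoded by the Klra genes. All rows of the table whose gene name is Klra1, Klra3, Klra4, Klra5, Klra6, Klra7, Klra8, Klra9 or Klra10 were taken, which gave 9 genes of 53714. RNA was measured in CD4+ iNKT1 cells, invariant natural killer T cells that produce mainly interferon-γ, from female mice 8 to 12 weeks old. The 20 libraries form 7 groups, namely BALB/c liver_H with 3 libraries, BALB/c liver_C with 2, and BL6 thymus, blood, liver_H, liver_C and spleen with 3 each. BL6 stands for C57/BL6N in the labels. Liver_H cells were released with warm enzymes, collagenase D together with DNase I, for 30 min at 37 °C. Liver_C, spleen and thymus cells were released in the cold without enzymes. Per the methods, liver samples were then spun on a Percoll gradient at 20 °C for 20 min. No such step is given for spleen and thymus, so that liver differs from them in this step too. Livers were perfused. Liver and spleen cells were sorted as CXCR3+ and without CD138, whereas thymus cells were sorted as CD122+ with no selection on CD138. Organ and gate thus cannot be told apart in any comparison with thymus. The paper's methods name neither a gate nor a preparation for blood cells. Each spleen or liver library is a pool of 4 to 6 mice. No pool size is given for blood and thymus.

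Ly49 receptors bind MHC class I molecules on neighbouring cells. Most of them carry an inhibitory motif that recruits the phosphatase SHP-1 (gene Ptpn6), and a few lack it and signal through the adapter DAP12 (gene Tyrobp) to activate the cell. They are best known from mouse natural killer (NK) cells and are also found on subsets of T cells, where each cell expresses only some of the genes. The number and the alleles of the genes differ between mouse strains, and BALB/c is known to have a smaller cluster than BL6 that lacks Ly49D and Ly49H.

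Values are normalized reads, that is reads per gene after division by a size factor that evens out library depth. Depth was 9336861 to 22879834 reads per library. The summed level of 9 iNKT1 markers, such as Zbtb16, Tbx21 and Cd3e, was 43688 to 53424 in thymus and 47314 to 74509 in the other groups, so these markers were present in every library, although Klrb1c (NK1.1), 1 of these markers, was 205 to 245 in BALB/c libraries against 2020 to 3314 in BL6 libraries. Genes of double-positive thymocytes (7 genes such as Rag1 and Cd8a) summed to 10977 to 24891 in thymus, and among the other 17 libraries they were highest in blood N0962 with 2807 and in BALB/c liver_H N0971 with 2540. Libraries N0962 to N0972 belong to the lowest of 3 ranges of library numbers. The study describes the libraries of spleen and of both strains' livers as independent runs on pooled mice. For blood and thymus this is not given in the sources used here, and there the spread may be technical. In the study's isolation of liver cells each liver was divided between the warm and the cold preparation, but the labels do not say which libraries share mice.

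The 9 genes are neighbours on chromosome 6 (GRCm38.p6, minus strand) between Klra5 at chr6:129898996-129917650 and Klra1 at chr6:130363917-130386874. Klra9 lies at chr6:130178675-130193112, Klra10 at chr6:130269194-130281928 and Klra3 at chr6:130323289-130337574. Because the genes are close copies, the first 75 coding bases of each are shown, the length of 1 read, from the start codon (GENCODE M21 transcripts). Capitals mark bases that differ from Klra9 at the same position.
Klra9: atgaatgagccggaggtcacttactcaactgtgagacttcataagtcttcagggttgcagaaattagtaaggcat
Klra10: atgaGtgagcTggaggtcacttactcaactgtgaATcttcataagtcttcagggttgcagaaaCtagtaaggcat
Klra3: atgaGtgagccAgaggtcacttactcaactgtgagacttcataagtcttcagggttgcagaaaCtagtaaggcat
Klra6: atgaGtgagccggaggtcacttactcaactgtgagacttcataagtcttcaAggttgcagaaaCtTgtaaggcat
Klra5: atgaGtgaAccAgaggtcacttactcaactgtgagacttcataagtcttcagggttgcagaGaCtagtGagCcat
Klra7: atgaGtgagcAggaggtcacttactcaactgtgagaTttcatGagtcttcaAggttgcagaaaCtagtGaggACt
Klra1: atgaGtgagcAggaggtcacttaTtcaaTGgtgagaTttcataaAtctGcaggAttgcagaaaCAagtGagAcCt
Klra8: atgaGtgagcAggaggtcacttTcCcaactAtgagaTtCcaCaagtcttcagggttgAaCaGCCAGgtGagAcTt
Klra4: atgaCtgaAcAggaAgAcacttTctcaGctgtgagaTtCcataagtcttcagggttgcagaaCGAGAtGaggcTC
Over this stretch Klra3 differed from Klra9 at 3 positions, Klra6 at 4 and Klra10 at 5, whereas Klra4 differed at 17 and Klra8 at 18. Over the whole coding sequence Klra9 and Klra10 were 96.9% identical, Klra3 and Klra10 96.2%, and Klra3 and Klra9 95.9%. The least similar pair was Klra4 and Klra10 with 77.55%. Of all 75-base windows of their transcripts, 19.7% in Klra8, 14.4% in Klra10, 12.1% in Klra9, 6.39% in Klra3 and 5.71% in Klra7 occurred letter by letter in another annotated gene. In Klra4 this was 0.342%, in Klra1 0.237%, and in Klra5 and Klra6 0. Klra8 shared most with the pseudogene Klra14-ps, 16.03% of its windows. Klra9 shared most with the pseudogene Klra11-ps, 5.48%, which had no read in any library. How the authors treated reads that fit several genes is not given in the sources used here, and values of Klra3, Klra7, Klra8, Klra9 and Klra10 carry this limit.

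**Figure D1:**
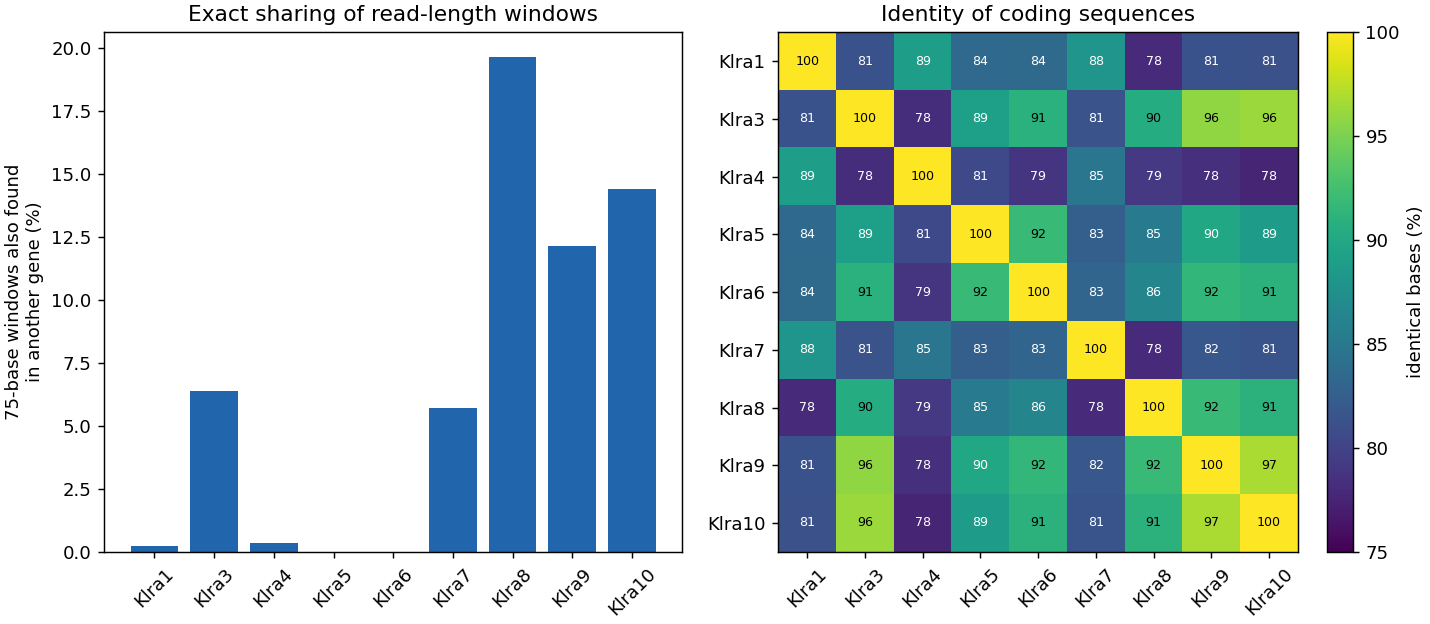
Left, share of each gene's 75-base transcript windows found exactly in another gene (percent). Right, percent identity of aligned coding sequences for each pair of genes. Klra8 has the highest bar, 19.7%, and Klra5 and Klra6 have none, while Klra3, Klra9 and Klra10 are the most alike.

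The thymus libraries held far more Ly49 RNA than any other group. The 9 genes summed to 5885 to 9146 normalized reads in thymus, 311 to 567 in blood, 663 to 869 in liver_H, 547 to 590 in liver_C and 239 to 347 in spleen. No thymus library came near another group. In bulk samples, more cells that express a gene and more RNA per expressing cell cannot be told apart.

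Klra9, which encodes the inhibitory receptor Ly49I, had 4430, 3686 and 5481 normalized reads in thymus, against 62.9, 50.2 and 63.1 in spleen. Blood had 48.9, 120.4 and 110.2, liver_H 163, 171 and 169.8, and liver_C 105, 101 and 74.8. Thymus thus stood apart from each organ, and liver_H lay above liver_C, blood and spleen without overlap. Blood and liver_C overlapped, as did blood and spleen. The log2 fold change of thymus against spleen was 6.23 ± 0.26 (SE; limma, Benjamini-Hochberg adjusted p = 2.05e-12), on the scale of log2(value + 1) as for all fold changes below. Klra9 was higher in 3 of 3 thymus libraries than in every spleen library. Against liver_C it was 5.58 ± 0.26 (adjusted p = 1.83e-11, limma). Between range 3 libraries alone, Klra9 was 3686 and 5481 in thymus, against 62.9 and 50.2 in spleen.

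Of the other inhibitory receptors, Klra1 (Ly49A) had 961, 757 and 1264 normalized reads in thymus, against 162, 126 and 71.3 in spleen. The log2 fold change was 3.09 ± 0.26 (limma adjusted p = 1.03e-07). Klra3 (Ly49C) had 978, 613 and 1087 in thymus, against 62.9, 85.6 and 49.2 in spleen. These groups did not overlap, and the difference was 3.73 ± 0.36 (limma adjusted p = 6.19e-07). Klra7 (Ly49G) had 269, 188 and 430.1 in thymus, against 18.5, 1.97 and 11.5 in spleen, a difference of 4.97 ± 0.72 (limma adjusted p = 7.15e-05).

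Klra5 (Ly49E), known as an early-appearing Ly49 in fetal NK cells, had 192, 215 and 247 normalized reads in thymus. In spleen it had 0, 2.95 and 9.83. Klra6 (Ly49F) had 72.0, 86.9 and 187 in thymus, against 3.70, 3.94 and 9.83 in spleen. Both were above spleen in every thymus library, with log2 fold changes of 5.96 ± 0.71 for Klra5 and 4.08 ± 0.54 for Klra6 (limma adjusted p = 8.47e-06 and 2.84e-05).

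Klra10 (Ly49J) was at or near 0 outside thymus. It had 248, 293 and 375 normalized reads in thymus, against 0, 0.984 and 3.28 in spleen, which are 0, 1 and 4 reads. The fitted log2 fold change of 7.21 ± 0.78 (limma adjusted p = 2.24e-06) rests on these few spleen reads and on the added 1. In no other group did a library exceed 7.34 normalized reads, so that Klra10 came into the fit through the thymus libraries only.

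The activating receptors were lower. Klra8 (Ly49H), which recognizes a cytomegalovirus protein, had 53.1, 45.7 and 75.5 normalized reads in thymus, against 18.5, 0 and 10.7 in spleen. It also entered the fit through thymus only, and its log2 fold change was 3.24 ± 1.02 (limma adjusted p = 0.0385). This call was lost with edgeR on recovered reads (adjusted p = 0.0706), with a pseudocount of 0.5 and without a filter on low values. It was also lost without spleen N1381, where the log2 fold change was 1.94, and without thymus N0967, N1376 or N1380, with 3.29, 3.40 and 3.04. Klra4 (Ly49D) was too low to be tested. It had 6.32, 0 and 0 normalized reads in thymus, against 18.5, 0.984 and 10.7 in spleen.

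In spleen N1377 and N1226 Klra4 and Klra8 had the same number of reads, 15 each and 13 each. In spleen N1381 they had 1 and 0. Outside spleen Klra4 did not exceed 6.32 in any library, the value of 1 thymus library, and in liver_C it was 0 in all 3 libraries. Their sequences shared no 75-base window. Macrophage markers (9 genes) summed to 307 in N1377, 446 in N1226 and 201 in N1381. NK markers (7 genes) summed to 526, 635 and 528 in the same libraries. The part of these markers in the values of Klra4 and Klra8 was not tested.

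All 8 genes tested were thus higher in thymus than in spleen, where 13.4% of all 13604 genes were called and 7.71% were called as higher. The groups did not overlap in any of the 8, as in 13.7% of all genes that lay wholly above spleen. Of these 8, Klra8 and Klra10 had passed the filter through thymus only, and their place in the count is set by that. The median log2 fold change of the 8 genes was 4.52, against -0.01 for all genes. Against liver_C the 8 genes were again higher, with 12.5% of genes called and 6.2% called as higher, and with a median of 3.65 against 0.01 for all genes. All 8 lay wholly above liver_C, as did 14.3% of all genes. Both comparisons share the thymus libraries. There Klra8 was called with a log2 fold change of 3.24 ± 1.02 (limma adjusted p = 0.0414). Without any 1 of thymus N0967, N1376 or N1380 it was 3.29, 3.39 and 3.04, and without liver_C N1224, N1379 or N1383 it was 3.34, 3.25 and 3.13, each time without a call.

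**Figure D2:**
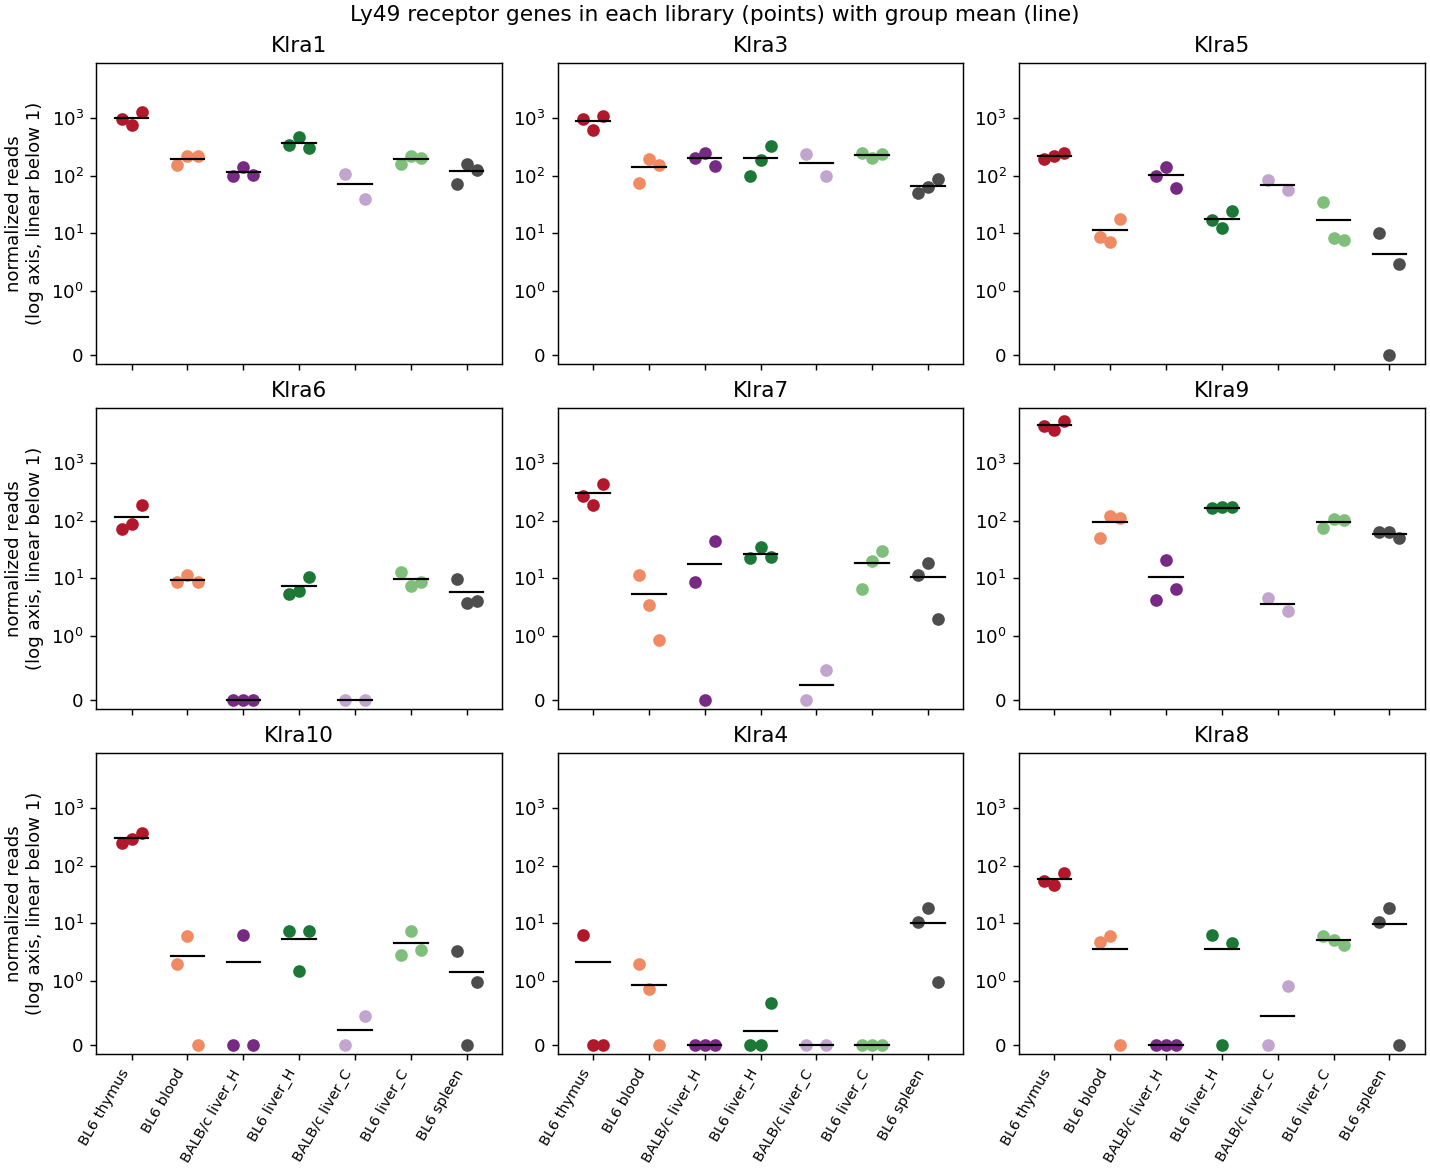
Normalized reads of the 9 genes (vertical axis, logarithmic above 1 and linear below) in each library (points) of the 7 groups, with the group mean as a line. All genes but Klra4 are highest in the 3 thymus libraries, Klra9 reaching 5481, and Klra6 lies at 0 in the 5 BALB/c libraries.

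The double-positive thymocyte genes, which were high in thymus as given above, were compared with Klra9 library by library. Thymus N1376 had the highest sum of these markers, 24891, and the lowest Klra9, 3686. Thymus N0967 had 10977 and 4430, and N1380 had 18433 and 5481. In blood, N0962 had a marker sum of 2807 and the lowest Klra9, 48.9, while N1378 had 1042 and 120.4. The part of these markers in the thymus values was not tested. The NK markers Ncr1 and Eomes, which code for a receptor and a transcription factor that define NK cells, were 0 to 3.66 and 0 to 2.10 in thymus, against 13.8 to 27.1 and 2.47 to 12.8 in spleen. The whole NK list (7 genes) summed to 699 to 830 in thymus and 526 to 635 in spleen, with Fcer1g, an adapter of activating receptors, at 275 ± 52.4 in thymus and 45.6 ± 6.95 in spleen (SD, n = 3 each).

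The make-up of Ly49 RNA also differed between thymus and the other organs. On a per-length scale (normalized reads per kb, as a share of the 9 genes), Klra9 made up 61.9 ± 1.24% in thymus, 21.9 ± 3.55% in blood, 24.2 ± 3.67% in liver_H, 17.8 ± 2.86% in liver_C and 23.1 ± 4.28% in spleen (SD, n = 3 each). Klra1 made up 9.76 ± 0.377% in thymus and 33.0 ± 8.66% in spleen. Klra3 made up 12.5 ± 1.69% in thymus and 26.8 ± 8.53% in spleen. Klra10 made up 6.53 ± 1.18% in thymus and 0.965 ± 1.17% in spleen. The level ratio of Klra9 to Klra1 within a library was 4.34 to 4.87 in thymus, and 0.325 to 0.885 in the other 12 BL6 libraries, without overlap. For Klra9 and Klra3, which are more alike in sequence, it was 4.53 to 6.01 in thymus and 0.298 to 1.66 in the others.

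**Figure D3:**
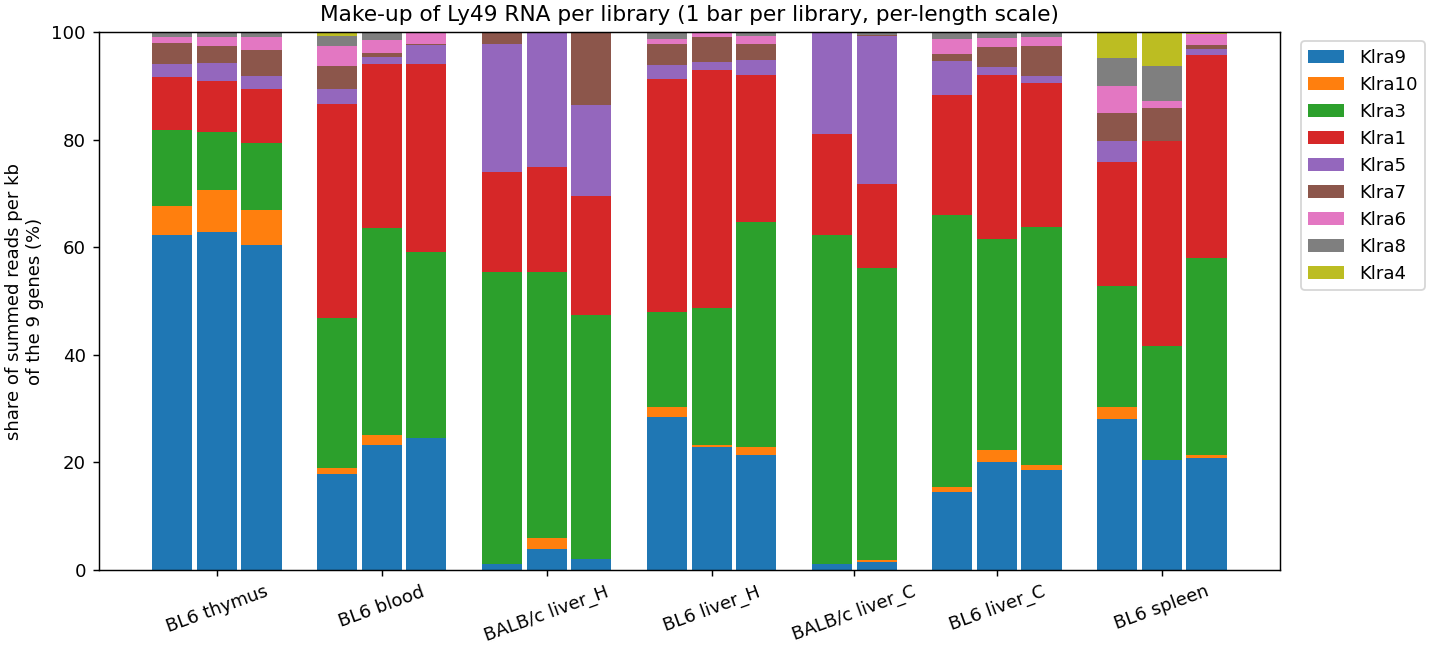
Share of each gene in the summed normalized reads per kb of the 9 genes (vertical axis, percent), with 1 bar per library, grouped along the horizontal axis. Klra9 takes 60.5 to 62.9% in the thymus bars, and Klra5 takes 16.97 to 27.5% in the BALB/c bars.

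Because all of these genes but Klra4 were higher in thymus, the start regions of the 9 genes were compared. Over the 12 BL6 libraries without thymus, their log2 levels did not move as 1 group. Pearson r between pairs ran from -0.745 (Klra3 and Klra4) to 0.857 (Klra1 and Klra9). RefSeq promoter windows (GRCm38.p6, 250 bases before to 50 after each start) were found for all 9 genes. The window of Klra10 ends in its first coding bases shown above, so its annotated start lies close to the start codon. Whether it covers the same region as the windows of the other genes was not tested, which limits what a missing match means for Klra10. The longest run of bases held by at least 6 of the 9 genes was looked for in these same windows, and it was aggaggggcagaaaa, 15 bases long. Being chosen in this way, its presence in 6 genes is a description. It was found in 9 of all 32851 windows (0.0274%), of which 7 belong to these 6 genes. Shown are the 75 bases that end with this run or, in Klra7, with its nearest match. At the end of each line capitals mark the bases of the run, and before it they mark matches to the TCF/LEF motif, which is CTTTG followed by AA, AT, TA or TT, searched on both strands.
Klra9, chr6:130193112-130193186: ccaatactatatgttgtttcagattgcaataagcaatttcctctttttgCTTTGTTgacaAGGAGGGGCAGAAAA
Klra3, chr6:130337607-130337681: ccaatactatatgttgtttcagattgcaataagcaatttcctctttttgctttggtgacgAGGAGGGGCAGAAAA
Klra6, chr6:130027035-130027109: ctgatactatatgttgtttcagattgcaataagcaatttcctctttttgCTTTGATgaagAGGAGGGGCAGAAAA
Klra5, chr6:129913276-129913350: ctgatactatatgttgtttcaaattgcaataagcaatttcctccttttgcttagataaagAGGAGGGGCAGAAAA
Klra7, chr6:130233373-130233447: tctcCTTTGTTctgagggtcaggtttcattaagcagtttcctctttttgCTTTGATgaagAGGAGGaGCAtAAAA
Klra8, chr6:130129940-130130014: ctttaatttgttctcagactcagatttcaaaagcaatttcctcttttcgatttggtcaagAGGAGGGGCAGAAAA
Klra4, chr6:130067312-130067386: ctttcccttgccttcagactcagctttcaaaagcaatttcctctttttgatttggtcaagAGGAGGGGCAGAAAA
Klra9, Klra6 and Klra7 held a TCF/LEF match in the stretch shown, and Klra3, Klra5, Klra8 and Klra4 held none. A match anywhere in a window was present in 3 of the 9 genes, and in 16.9% of all windows. Klra7 and Klra8 have more than 1 window each, so that a share of genes is not a share of windows. The RUNX motif TGTGGT was found in Klra1 only, against 16.8% of all windows, the T-box motif AGGTGTGA in none, against 1.275%, and the C/EBP motif TTGCGCAA in none, against 0.183%. These are matches of letters and not measured binding. Tcf7, which encodes the TCF factor of T cells, averaged 5063 ± 2095 normalized reads in thymus and 1530 ± 45.5 in spleen (SD, n = 3 each), with a log2 fold change of 1.65. Of 14 transcription factors tested as a list, 2 were higher and 5 lower in thymus than in spleen, with a median of -0.20. Of all genes, 7.71% were called as higher and 5.73% as lower. The double-positive thymocyte genes were high in the same thymus libraries, and their part in the Tcf7 level was not tested.

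Over the 15 BL6 libraries, the genes whose log2 level followed the sum of the 9 genes most closely were Capg (Pearson r = 0.969), Rgs10 (0.961), Litaf (0.952), Styk1 (0.950) and Spry2 (0.949), out of 8094 genes. Styk1 averaged 1126 in thymus and 5.41 in spleen, and Capg averaged 1624 in thymus and 97.7 in spleen. These r describe the 15 libraries, in which thymus is far from the rest.

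In liver_H, 3 of the 5 genes tested were higher than in spleen, with all 5 free of overlap with spleen, where 16.6% of all genes lay wholly above it. In this comparison 16.1% of 12802 genes were called and 9.33% were called as higher. Klra1 had 344, 459 and 299.7 normalized reads in liver_H, against 162, 126 and 71.3 in spleen, a log2 fold change of 1.67 ± 0.27 (limma adjusted p = 0.000993). Klra9 (1.51 ± 0.23, adjusted p = 0.000709, limma) had 163 to 171 in liver_H and 50.2 to 63.1 in spleen. Klra3 (1.47 ± 0.33, adjusted p = 0.00905, limma) had 98.5, 185 and 320.6 in liver_H, above the 49.2 to 85.6 of spleen. Klra5 had 12.03 to 24.2 in liver_H and 0 to 9.83 in spleen, and Klra7 had 22.0 to 34.6 in liver_H and 1.97 to 18.5 in spleen. Neither was called (limma adjusted p = 0.0770 and 0.143). Without spleen N1226 Klra5 was called, at a log2 fold change of 3.18. Without liver_H N0963 and N0969, which leaves 1 liver_H library that is assumed to vary like the other groups, Klra1 lost its call, at 1.40.

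In liver_C, Klra3 was the only 1 of the 5 genes called against spleen, where 2.55% of genes were called and 1.63% were called as higher. It had 251, 199.6 and 234 normalized reads in liver_C, against 62.9, 85.6 and 49.2 in spleen. The groups did not overlap, with a log2 fold change of 1.81 ± 0.33 (limma adjusted p = 0.00857). Klra1 and Klra9 were 158 to 220.3 and 74.8 to 105 in liver_C, and 71.3 to 162 and 50.2 to 63.1 in spleen, with log2 fold changes of 0.75 and 0.66 (limma adjusted p = 0.191 and 0.185). Klra3 and Klra9 lay wholly above spleen, as did 9.19% of all genes. With the library number range as a block Klra1 was called as well (0.75, limma adjusted p = 0.0319). Of 7 B and plasma cell markers 6 were tested, and all 6 were lower in liver_H and in liver_C than in spleen (medians of -3.50 and -5.08). The 7 summed to 85.7 to 341 in liver_H and 80.9 to 145 in liver_C, against 841 to 1735 in spleen, and their part in the results was not tested. The comparisons of both liver preparations share the spleen libraries.

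**Figure D4:**
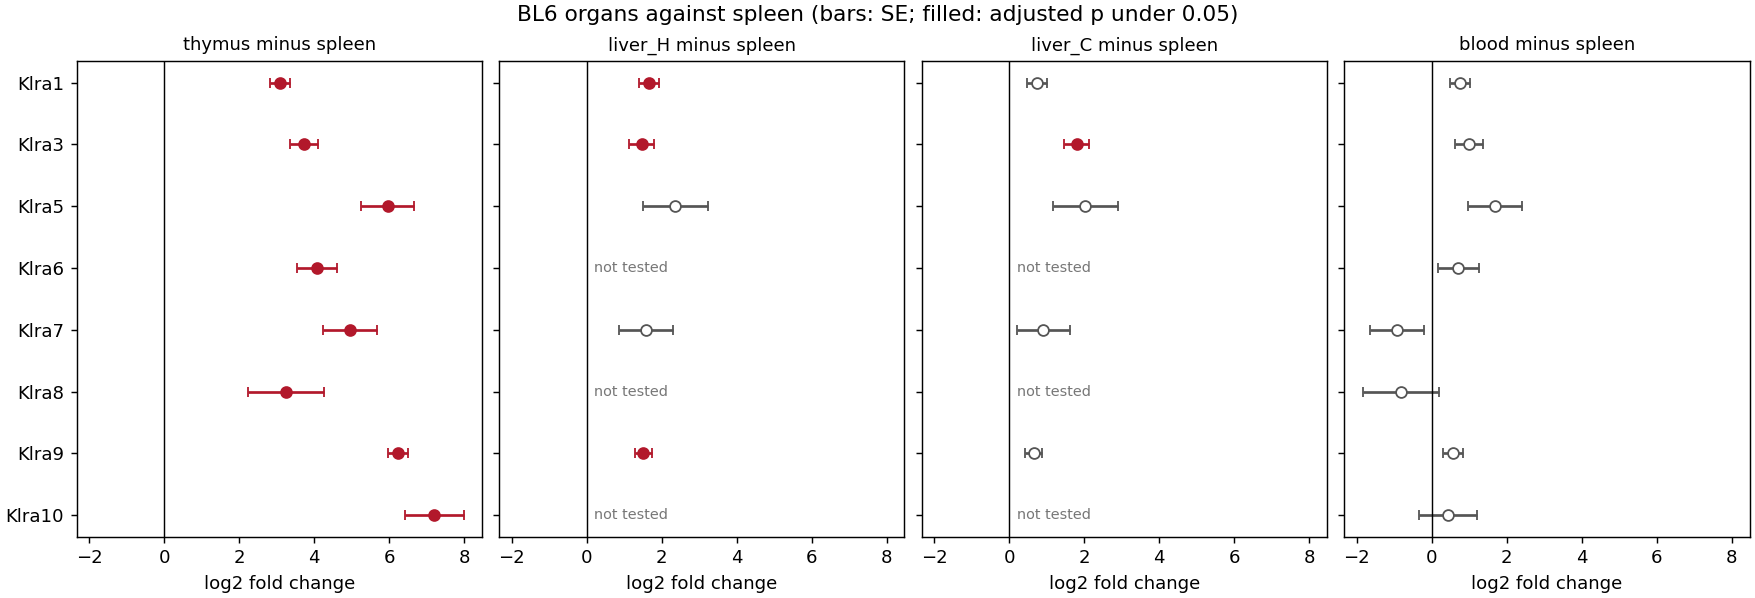
Log2 fold change against BL6 spleen (horizontal axis, with SE as bars) of the genes tested, for thymus, liver_H, liver_C and blood. Filled points have a limma adjusted p under 0.05, and the thymus values lie between 3.09 and 7.21.

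Between digested and cold liver, no Ly49 gene was called by limma, whereas DESeq2 called Klra1 and Klra9. Klra1 had 344, 459 and 299.7 normalized reads in liver_H, against 158, 220.3 and 201 in liver_C. Klra9 had 163 to 171 in liver_H and 74.8 to 105 in liver_C. Both genes lay wholly above liver_C, as did 10.4% of all genes, yet the log2 fold changes of 0.91 and 0.85 did not pass the threshold (limma adjusted p = 0.0951 and 0.0685). In limma 0 of 5 genes were called and 2 had an unadjusted p under 0.05, with 2.4% of all genes called. EdgeR called 0 and DESeq2 called both (adjusted p = 0.0180 and 0.0130), and in limma the fit of these groups alone called Klra1 (adjusted p = 0.0339). Of the markers of double-positive thymocytes, 4 were tested, and 2 were called as higher in liver_H, where 2.4% of all genes were called. These 2 were Cd8a and Cd8b1, which also make up the CD8 T cell list. The double-positive list summed to 549, 761 and 48.3 in liver_H, against 51.7, 13.6 and 23.1 in liver_C. Within it, Cd8a and Cd8b1 summed to 157, 162 and 47.7 in liver_H, against 25.9, 10.2 and 22.6 in liver_C. Liver_H N0963 and N0969 held the most of these markers and N1225 the least. Klra9 was 163 and 171 in N0963 and N0969, and 169.8 in N1225. In the same order, Klra1 was 344 and 459, and 299.7 in N1225, and Klra3 was 98.5 and 185, and 320.6 in N1225. The part of these markers in the result was not tested. Klra3 overlapped, with 98.5 to 320.6 in liver_H and 199.6 to 251 in liver_C and a log2 difference of -0.33 ± 0.33.

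In blood, 0 of 8 genes were called against spleen with limma, edgeR or DESeq2, and 4 had an unadjusted p under 0.05 in limma, with 4.22% of all genes called. Klra1 had 151, 219 and 216 normalized reads in blood, against 162, 126 and 71.3 in spleen. Klra3 had 73.9, 193 and 150.4 in blood, against 62.9, 85.6 and 49.2 in spleen. In both genes the groups overlapped through blood N0962, the lowest blood library. Without N0962 Klra3 (log2 fold change 1.39) and Klra9 (0.97) were called, and without spleen N1226 Klra5 (2.503) was called. With the library number range as a block Klra3 (1.25, limma adjusted p = 0.0264) and Klra5 (2.23, limma adjusted p = 0.0306) were called. Within library number range 3 alone, Klra1 was 219 and 216 in blood, against 162 and 126 in spleen, Klra3 was 193 and 150.4 in blood, against 62.9 and 85.6 in spleen, and Klra9 was 120.4 and 110.2 in blood, against 62.9 and 50.2 in spleen. There, with 2 libraries on each side, the groups did not overlap in these 3 genes. Nor did they in Klra5 and Klra6, while Klra7, Klra8 and Klra10 overlapped. The share of all genes without overlap was not counted for these libraries, so that no result can be drawn from these genes lying apart. Against liver_C 0 of 8 genes were called with limma, edgeR or DESeq2 and 2 had an unadjusted p under 0.05 in limma, where 0.265% of all genes were called. The summed level, 311 to 567 in blood and 547 to 590 in liver_C, overlapped.

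In BALB/c liver the counted levels of Klra9 and Klra1 were lower than in BL6 liver, that of Klra5 was higher in liver_H (limma adjusted p = 0.0318) but not past the threshold in liver_C (limma adjusted p = 0.0988), and Klra3 did not pass the test. These levels were counted on the BL6 genome. Klra9 had 4.24, 20.5 and 6.43 normalized reads in BALB/c liver_H, against 163, 171 and 169.8 in BL6 liver_H. In liver_C it had 4.47 and 2.74 in BALB/c, against 105, 101 and 74.8 in BL6. It was lower in each BALB/c library than in any BL6 library, with log2 fold changes of -4.16 ± 0.50 in liver_H and -4.38 ± 0.56 in liver_C (limma adjusted p = 0.000177 and 0.000396).

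Klra5 showed the opposite. It had 99.0, 142 and 61.1 normalized reads in BALB/c liver_H, against 16.8, 12.03 and 24.2 in BL6 liver_H. In liver_C it had 83.4 and 55.7 in BALB/c, against 8.27, 7.67 and 35.2 in BL6. All BALB/c libraries were above all BL6 liver libraries. The log2 fold change was 2.42 ± 0.57 in liver_H (limma adjusted p = 0.0318) and 2.28 ± 0.64 in liver_C (adjusted p = 0.0988, not called). The liver_H call was lost without BL6 N0963, N0969 or N1225 (2.41, 2.19 and 2.66) and without BALB/c N0971 or N0972 (2.39 and 2.13). In liver_C Klra5 was called without BL6 N1224, at 2.95. Without the lowest library number range, which leaves 1 liver_H library of each strain, the liver_H value was 1.30 and not called.

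Klra1 was lower in BALB/c, with 99.0, 139 and 101 in liver_H, against 344, 459 and 299.7 in BL6. In liver_C it had 104 and 39.7 in BALB/c, against 220.3, 201 and 158 in BL6. The groups did not overlap, and the log2 fold changes were -1.69 ± 0.32 in liver_H and -1.56 ± 0.36 in liver_C (limma adjusted p = 0.00794 and 0.0359). The liver_H call was lost without BL6 N0969 (-1.52) and without the lowest library number range (-1.56). The liver_C call was lost without BALB/c N1227 (-0.87) and without BL6 N1224, N1379 or N1383 (-1.69, -1.46 and -1.52), and also with the library number range as a block (-1.58), with the compared groups alone and without a filter (limma adjusted p = 0.111, 0.164 and 0.0573).

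Klra3 had 201, 248 and 145 normalized reads in BALB/c liver_H, against 98.5, 185 and 320.6 in BL6 liver_H. These values overlapped, with a log2 difference of 0.10 ± 0.40 in liver_H and -0.57 ± 0.45 in liver_C (limma adjusted p = 0.935 and 0.795). Klra7 had 8.49, 0 and 44.0 in BALB/c liver_H, against 22.0, 34.6 and 22.9 in BL6 liver_H. In liver_C it had 0 and 0.456 in BALB/c, against 19.6, 29.8 and 6.60 in BL6. The log2 fold changes of Klra7 were -1.84 in liver_H and -3.81 in liver_C (limma adjusted p = 0.464 and 0.193), and DESeq2 called the liver_C difference (-5.65, adjusted p = 0.0190). The value of 44.0 came from BALB/c N1229, which also had 31.1 of Klra2, a Ly49-like gene found in myeloid cells, against 0 to 5.66 in the other BALB/c libraries. The macrophage markers summed to 257 in N1229 and to 31.3 to 231 in the other BALB/c libraries. Their part in the Klra7 value was not tested.

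Klra4 and Klra6 had no read in any of the 5 BALB/c libraries. With a floor of 3 reads over the group, Klra6 was at least 5.48-fold lower in BALB/c liver_H than its mean of 7.23 in BL6 liver_H, and at least 9.04-fold lower in BALB/c liver_C than its mean of 9.47 in BL6 liver_C. Klra8 had 2 reads in 1 BALB/c library, 0 in the others, and 0 to 6.29 normalized reads in BL6 liver libraries. Klra10 had 4 reads in BALB/c liver_H N0972 and 1 read in liver_C N1227. These genes were too low in liver to be tested.

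In BALB/c against BL6, 1 of 5 genes tested was higher and 2 lower in liver_H, where 3.71% of 13202 genes were called (1.8% higher, 1.91% lower). In liver_C 2 were lower, where 2.58% were called (1.17% higher, 1.41% lower). Without overlap, 1 gene lay above and 2 below BL6 in liver_H, where 10.4% of all genes lay above and 10% below. In liver_C 1 lay above and 3 below, against 12.4% and 12.6% of all genes. On the per-length scale, Klra3 made up 49.7 ± 4.42% of the 9 genes in BALB/c liver_H, against 28.3 ± 12.3% in BL6 liver_H (SD, n = 3 each). In liver_C it made up 57.7 ± 4.87% in BALB/c (SD, n = 2), against 44.7 ± 5.59% in BL6 (SD, n = 3), so that Klra3 was the largest share in BL6 liver_C too. Klra5 was next, with 21.9 ± 4.35% in BALB/c liver_H and 2.31 ± 0.730% in BL6 liver_H. The reads of both strains were aligned to the BL6 genome, so that BALB/c reads can be lost or placed on a related gene where the alleles differ. That part was not tested. Between BALB/c liver_H and BALB/c liver_C 0 of 5 genes were called with limma, edgeR or DESeq2 (1 at an unadjusted p under 0.05 in limma, 0.273% of all genes called). For the strain difference of the digestion effect 0 were called with any of the 3, 0 had an unadjusted p under 0.05 in limma, and 0% of all genes were called.

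**Figure D5:**
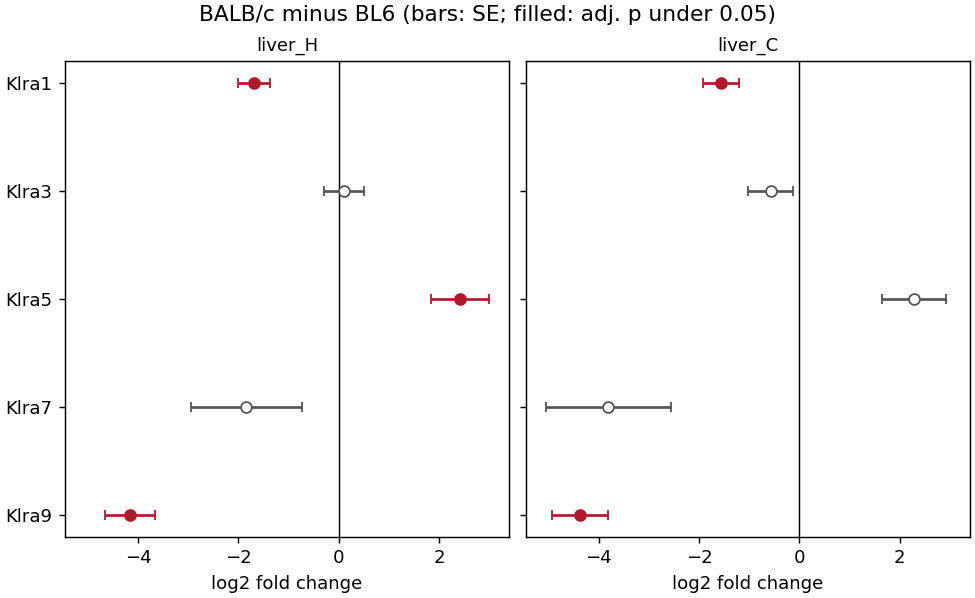
Log2 fold change of BALB/c minus BL6 (horizontal axis, with SE as bars) in liver_H and liver_C for the 5 genes tested. Filled points have a limma adjusted p under 0.05. Klra9 lies at -4.16 and -4.38, and Klra5 is the gene with positive values in both panels, 2.42 and 2.28.

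Of the remaining Klra rows, the pseudogene Klra13-ps had 94.7, 141 and 104 normalized reads in thymus, against 2.47, 1.97 and 9.01 in spleen, with a log2 fold change of 4.58 ± 0.55 (limma adjusted p = 9.34e-06). Klra7 shared 5.71% of its windows with it. Klra14-ps had 35.4, 3.66 and 30.4 in thymus and 0 to 4.10 in spleen, and was 0 in all BALB/c libraries. Klra2 and Klra17, relatives found in myeloid and plasmacytoid cells, were 0 to 2.74 and 0 in thymus and 0 to 4.10 and 0 in spleen.

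Genes that act with Ly49 were compared as lists. Of 14 other receptors of the NK gene complex, 11 were tested between thymus and spleen, of which 6 were higher and 2 lower, with a median log2 fold change of 0.78 against -0.01 for all genes, of which 7.71% were called as higher and 5.73% as lower. Against liver_C 1 was higher and 3 were lower, with a median of -0.08 against 0.01 for all genes, where 6.2% of all genes were higher and 6.27% lower. Klre1, a partner receptor of the complex, averaged 469.6 ± 82.1 in thymus and 141 ± 17.3 in spleen, while liver_C had 514 ± 21.2, from which thymus was not called different (log2 fold change -0.14, limma adjusted p = 0.655). Klrc2 (NKG2C) averaged 449 ± 49.9 in thymus and 135 ± 23.7 in spleen, and Klrd1 (CD94), its partner, averaged 945 ± 202 in thymus and 469 ± 32.4 in spleen (SD, n = 3 each; limma adjusted p = 6.06e-07, 8.99e-06 and 0.000185 for the 3 genes against spleen).

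Of 18 genes of Ly49 signalling, 17 were tested, and 2 were higher and 5 lower in thymus than in spleen, where 7.71% of all genes were called as higher and 5.73% as lower. Against liver_C 3 were higher and 3 lower, where 6.2% of all genes were higher and 6.27% lower. Ptpn6, which encodes the phosphatase recruited by inhibitory Ly49, averaged 5018 ± 101 in thymus and 1790.4 ± 135 in spleen (SD, n = 3 each). The log2 fold change was 1.49 (limma adjusted p = 4.72e-08). Tyrobp (DAP12), the adapter of Ly49D and Ly49H, averaged 23.4 ± 1.23 in thymus and 27.8 ± 3.24 in spleen (SD, n = 3 each), and was not called. Of the ligands and their loading genes (7 genes), 5 were lower in thymus than in spleen, where 5.73% of all genes were lower, with a median of -0.44. Against liver_C 5 were lower as well, where 6.27% of all genes were lower, with a median of -0.49, and both comparisons share the thymus libraries. H2-K1, a classical MHC class I heavy chain, averaged 14095 ± 1942 in thymus and 23326 ± 1971 in spleen (SD, n = 3 each). The log2 fold change was -0.73 (limma adjusted p = 0.000992).

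In liver_H against spleen 6 of 11 receptors of the complex were higher, where 16.1% of all genes were called and 9.33% were higher. In liver_C 4 were higher, where 2.55% of all genes were called and 1.63% were higher. Klre1 rose in both, to 508 ± 94.7 in liver_H and 514 ± 21.2 in liver_C, against 141 ± 17.3 in spleen (SD, n = 3 each). In BALB/c liver_H against BL6 liver_H, 2 of 13 receptors were higher and 5 lower, against 1.8% and 1.91% of all genes. Klrc1 (NKG2A) averaged 447 ± 57.7 in BALB/c and 2503 ± 405 in BL6, and Klre1 averaged 66.6 ± 6.01 in BALB/c and 508 ± 94.7 in BL6 (SD, n = 3 each; limma adjusted p = 3.57e-06 for both). In BALB/c liver_C against BL6 liver_C 1 was higher and 6 lower, against 1.17% and 1.41% of all genes.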

How the data were processed

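RNA of sorted CD4+ iNKT1 cells was measured in 20 libraries of 7 groups, which were grouped by organ, preparation and strain from their labels. Per the study's methods, stranded total RNA libraries were sequenced as single 75-base reads, trimmed with Trim Galore 0.4.4, aligned with STAR to GRCm38.p6, counted per gene with featureCounts and normalized with DESeq2. The authors deposited a signal per gene, in which each library's reads were scaled by its DESeq2 size factor. The deposited table also holds the authors' own log2 fold change with p-values, which compare all thymus libraries with all others and were not used. It gives 53714 genes, from which gene lengths, names and positions were taken. Strand setting and treatment of reads with several fits are not given in the sources used here. Whole reads were recovered from the smallest step of each library, and at least 99.977% of values were within 0.05 of a whole read. Depth was 9336861 to 22879834 reads. The reads carry no molecular identifiers, so floors cover counting error only.

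Values were set to log2(value + 1), and genes with at least 10 in at least 3 libraries of a fit entered limma 3.58.1 (trended variance, R 4.3.3), adjusted by Benjamini-Hochberg over all genes tested, threshold 0.05. Fits held 9 BL6 libraries (spleen and liver), 15 (all BL6) or 11 (liver of both strains). On recovered reads, edgeR 4.0.16 called 1737 genes and DESeq2 1.42.0 called 2017 genes between thymus and spleen, where limma called 1828. The fit was tested on simulated data. Named were all Klra genes, in each list up to 3 called genes (those of lowest adjusted p), and the 5 genes most like the summed level with a mean of at least 100. Other genes (Tyrobp, cell type markers) were named for their role after their values were seen. The 9 genes, the lists and the tests were chosen with earlier results of these data known. Alternatives were pseudocounts of 0.5 and 10, no filter or a filter of 100, quantile normalization, a fit of all 20 libraries, a fit of the compared groups alone, the library number range as a block, edgeR, DESeq2 and leaving out each library. Leaving out the lowest range was added after seeing the data. Windows and coding sequences come from GENCODE M21 transcripts and alignments from Biopython 1.88, and promoters are RefSeq windows.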

Additional observations from a re-analysis of the deposited data

How the results depend on the processing

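Of 1102 alternative values of single genes, 1053 kept direction and call, 34 lost and 15 gained a call, and none reversed. No paired analysis was possible because libraries of different groups share no replicate number, and consecutive library numbers do not say which libraries share mice. Where the number of genes called changed by over 1.5 times, the values were as follows. With the library number range as a block, 2 genes were called between liver_C and spleen (Klra1 was added), 2 between blood and spleen (Klra3 and Klra5), and 1 between BALB/c and BL6 liver_C. With only the groups compared in the fit, 1 was called between liver_H and liver_C and 1 between BALB/c and BL6 liver_C. DESeq2 called 2 between liver_H and liver_C. Without a filter 1 was called between BALB/c and BL6 liver_C. Without the lowest library range, an alternative added after seeing the data, 2 were called between blood and spleen and 1 between BALB/c and BL6 liver_H. Leaving out 1 library at a time gave 0 to 2 genes between blood and spleen, 1 to 2 between BALB/c and BL6 liver_C, 1 to 3 between BALB/c and BL6 liver_H, 6 to 8 between thymus and spleen and 6 to 7 between thymus and liver_C, since Klra8 then loses its call and Klra10, without 1 thymus library, fails the filter. In every alternative in which they were tested, Klra1, Klra3, Klra5, Klra6, Klra7 and Klra9 remained called as higher in thymus than in spleen, and Klra9 as lower in BALB/c. Counts over all genes moved more. For liver_H against spleen, 2060 genes became 1146 with all 20 libraries, 512 with the range block, 442 without the lowest range and as few as 935 without 1 library. For liver_C against spleen, 326 became 174 with all 20, 721 with the block, 572 with DESeq2 and as few as 138 without 1 library. For liver_H against liver_C, 307 became 149 with all 20, 90 with the block, 598 with DESeq2, 46 without the lowest range and as few as 119 without 1 library. For blood against spleen, 574 became 368 without a filter, 258 with all 20, 1060 with the block, 345 without the lowest range and as few as 282 without 1 library. For blood against liver_C, 36 became 10 with all 20, 95 with the compared groups alone, 84 with the block, 162 with DESeq2 and as few as 9 without 1 library. For BALB/c against BL6 liver_C, 340 became 181 with the compared groups alone, 167 with the block, 543 with DESeq2, 183 without the lowest range and 655 without N1227. For BALB/c against BL6 liver_H, 490 became 323 with a filter of 100, 864 with all 20, 863 with DESeq2, 218 without the lowest range and as few as 303 without 1 library. For BALB/c liver_H against liver_C, 36 became 22 without a filter, 23 with a filter of 100, 89 with all 20, 9 with the compared groups alone, 83 with the block, 131 with DESeq2, and 15 to 90 without 1 library. The strain difference of the digestion effect gave 0, 1 with the block, 1 with DESeq2, 2 without the lowest range and 7 without N1227. The cause of these shifts was not tested. Low genes limit the strain comparison, since Klra4, Klra6, Klra8 and Klra10 could not be tested in liver.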
